A study of Mus musculus with 18 samples.

Results

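Single-direction rotation with the eyes covered was set against no rotation at the level of hippocampal transcripts. The 8 libraries of this comparison, out of 18 in the series, were chosen by their group label. The 5 S-V libraries came from mice rotated in one direction with vision blocked, and the 3 Control libraries from the group labelled as blank control. Both are mouse hippocampus taken at once after the rotation period, profiled by polyadenylated RNA sequencing. The labels used here give neither strain, sex and age nor the speed and length of the rotation, and do not say whether the controls wore the occlusion or sat in the still device. Rotation and blocked vision therefore cannot be told apart in this comparison. The other 2 groups, D-V (rotation in both directions with vision blocked, the Coriolis condition, 5 libraries) and D+V (rotation in both directions with vision free, 5 libraries), enter only where S-V is compared with them.

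The hippocampus builds a map of place, and the vestibular organs of the inner ear are one of its main sources of information on self-motion. That information reaches it through the vestibular nuclei, the thalamus and the septum, whose cholinergic fibres pace hippocampal rhythms. Within minutes of strong firing, pyramidal and granule cells transcribe immediate early genes such as Fos, Arc and Npas4, and acute stress adds a slower wave of genes that the glucocorticoid receptor induces. Granule cells of the dentate gyrus and pyramidal cells of CA1, CA2 and CA3 form the main circuit, with the choroid plexus, the thalamus and the habenula lying beside it.

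The S-V libraries held 15.56 to 24.28 M estimated counts each and the controls 20.44 to 22.17 M, and 14763 of 22063 genes passed the filter on low counts. Markers of the labelled tissue were present in all 8 libraries, with Prox1, the granule cell transcription factor, at 79.1, 126 and 153 CPM (counts scaled to library size, per 1 M) in Control and 117, 142, 150.2, 94.1 and 141 CPM in S-V, and Fibcd1, a CA1 marker, at 203, 183 and 205 CPM and 169.9, 159, 176, 186 and 175 CPM. Y-linked genes had counts in all 8. The libraries differed in base composition in step with the groups. Within each library, the deviation of genes from their mean over the 18 libraries was correlated with the GC content of their transcript, at Spearman values of 0.416, 0.344 and 0.126 in the controls and −0.028, −0.239, −0.032, −0.06 and −0.11 in S-V, so that all 5 S-V libraries lay below all 3 controls. The mean was 0.295 ± 0.151 (SD, n = 3) in Control and −0.0938 ± 0.0876 (SD, n = 5) in S-V, with an exact two-sided permutation p of 0.0179. No smaller p is possible with 56 splits, and adjusting over 6 measures of the libraries gave 0.107. Over 14743 genes, not replicates of each other, Spearman's correlation between the S-V difference and GC content was −0.434, and it was −0.0504 for transcript length. With the genes ordered by GC content into 5 equal bins, the median log2 difference went from 0.131 in the lowest bin to −0.118 in the highest. Many of the list values below are therefore also given with the trends of each library on GC content and length removed.

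**Figure D1:**
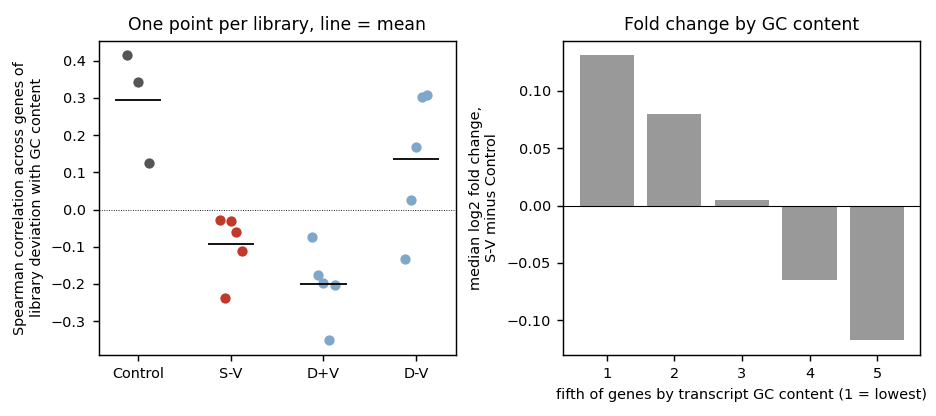
Left, Spearman correlation across genes between a library's deviation from the mean of the 18 libraries and transcript GC content, with a point per library and a line at the group mean. Right, median log2 fold change of S-V against Control in 5 equal bins of the tested genes ordered by GC content. The 5 S-V libraries lie below 0 and the 3 controls above it, and the median goes from 0.131 to −0.118 from the lowest bin to the highest.

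At the level of single genes 0 of 14763 passed the quasi-likelihood test of edgeR at an adjusted p under 0.05 (0%), and the smallest adjusted p was 0.0847. An unadjusted p under 0.05 was reached by 2017 genes (13.7%), where chance gives 738: 1114 were higher in S-V (7.55% of genes tested) and 903 lower (6.12%). In the same comparison DESeq2 called 216 genes and limma voom 318, with 159 called by both. The log2 differences had a median size of 0.129, with the 5th percentile of signed values at −0.41 and the 95th at 0.36, and 7472 genes were positive (50.6%). With the GC and length trends removed, 578 genes were higher (3.92%) and 660 lower (4.47%) at an unadjusted p under 0.05, and 4 passed at the adjusted threshold (0.0271%): Ttc14 (−0.59), Zcchc7 (−0.61) and Zfp994 (−0.98) were lower in S-V and Bloc1s4, a subunit of the BLOC-1 complex of lysosome-related organelles, was higher (0.51). Ttc14 stood at 47.6, 57.9 and 78 CPM in Control and 41.7, 44.7, 38.5, 37.7 and 43.1 CPM in S-V. The groups did not overlap for it, and Control replicate 3 was the highest library. The log2 difference of Ttc14 as counted was −0.57, and −0.36 without that control. No gene below is said to have changed, since none passed the main test.

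The 20 genes with the smallest p, 10 in each direction, had all 5 S-V libraries beyond all 3 controls, as the choice by these values favours. Among all genes tested, all 5 S-V libraries lay above all controls for 977 (6.62%) and below for 848 (5.74%). On the lower side, Dbn1 (ENSMUSG00000034675), which encodes the actin-binding protein drebrin of dendritic spines, was at 342, 329 and 319 CPM in the 3 controls and 269, 255, 257, 259.7 and 279 CPM in the 5 S-V libraries (log2 −0.32, SE 0.055, adjusted p 0.0847 in edgeR). Each group kept within a narrow band and a wide gap lay between them. Sptbn4 (ENSMUSG00000011751), the spectrin that anchors sodium channels at the axon initial segment, was at 186, 174 and 177 CPM and 143, 143, 139.6, 139 and 147 CPM (log2 −0.33, SE 0.062, adjusted p 0.0913). Sptbn4 transcripts are rich in G and C (63.7%), and with the composition trends removed its log2 difference was −0.14, against −0.22 for Dbn1.

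Pdgfrb (ENSMUSG00000024620), the PDGF receptor of pericytes, had the smallest p of all genes. Its level was 30.9, 32.7 and 30.2 CPM in Control and 19.6, 22.9, 22.6, 23.4 and 22.7 CPM in S-V (log2 −0.49, SE 0.08, adjusted p 0.0847), with S-V replicate 1 the lowest library and the other S-V libraries close together. The log2 difference was −0.41 with the composition trends removed. Cspg4, the NG2 proteoglycan that marks pericytes and oligodendrocyte precursors, was at 27.2, 24 and 22.5 CPM and 18.9, 16.3, 17, 17.7 and 19.2 CPM (log2 −0.46, SE 0.11). Col4a2, a basement membrane collagen of vessels, was at 40.5, 44.1 and 37.8 CPM and 30.3, 32.4, 34.4, 30.4 and 31.2 CPM (log2 −0.36, SE 0.089). In both, every S-V library lay below every control.

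**Figure D2:**
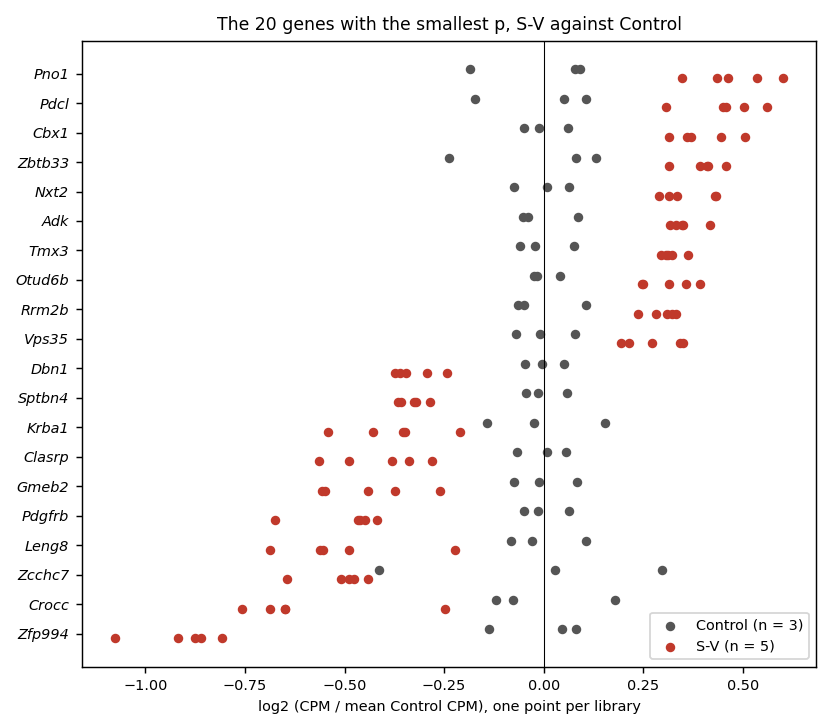
Values of the 20 genes with the smallest p in S-V against Control, as log2 of CPM over the mean CPM of the 3 controls, with a point per library. The groups are apart in each row, which the choice of genes favours, and Zfp994 has the widest gap.

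Cbx1 (ENSMUSG00000018666), the heterochromatin protein HP1 beta, was at 19.5, 20.5 and 19.1 CPM in Control and 26.9, 25.3, 24.5, 28 and 25.5 CPM in S-V (log2 0.40, SE 0.076, adjusted p 0.0913). Zbtb33, which encodes Kaiso, a factor that binds methylated DNA, was at 20.7, 25.8 and 26.7 CPM and 30.3, 32.4, 32.4, 32 and 33.5 CPM (log2 0.40, SE 0.084). Both were higher in S-V without overlap. Zfp994, a zinc finger gene, had the largest difference among the 20, at 4.97, 5.64 and 5.78 CPM and 3.01, 3.12, 2.98, 2.89 and 2.59 CPM (log2 −0.90, SE 0.19), and reads of such genes can be split among near-identical copies. Clasrp, a relative of splicing factors, was lower (23.6, 22.9 and 21.7 CPM against 16.2, 15.4, 18, 17.5 and 18.7 CPM), as was Gmeb2, which binds the glucocorticoid modulatory element (23.2, 22.3 and 24.8 CPM against 18.1, 15.9, 16, 19.6 and 17.2 CPM). Zcchc7, a zinc knuckle protein of nuclear RNA surveillance, was at 18.5, 25.1 and 30.2 CPM and 18.1, 15.7, 17.5, 17.3 and 17.7 CPM. Control replicate 1 lay next to the S-V libraries there, and the log2 difference of Zcchc7 was −0.68 without that control and −0.33 without Control replicate 3. Leng8 (log2 −0.49, SE 0.10), Krba1 (log2 −0.37, SE 0.087) and Crocc, the ciliary rootlet protein rootletin (log2 −0.59, SE 0.13), complete the lower side.

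Among the other genes of the higher side, Adk, adenosine kinase, which clears the inhibitory modulator adenosine, was at 53.8, 48.9 and 49.3 CPM in Control and 63.2, 67.7, 64.6, 64.5 and 63.8 CPM in S-V (log2 0.35, SE 0.068, adjusted p 0.0913). Vps35, the retromer subunit that returns receptors from endosomes, was at 155, 172 and 161 CPM and 189, 207, 196, 186 and 206 CPM (log2 0.28, SE 0.058). The S-V libraries were tight in both genes and clear of the controls. Pdcl, a phosducin-like partner of G protein beta subunits (log2 0.46, SE 0.087), Otud6b, a deubiquitinase (log2 0.31, SE 0.059), and Tmx3, which forms disulfide bonds in the secretory pathway (log2 0.32, SE 0.067), belonged here too. So did Pno1, a factor of small ribosomal subunit assembly (log2 0.48, SE 0.093), Nxt2, of the mRNA export machinery (log2 0.36, SE 0.073), and Rrm2b, a ribonucleotide reductase subunit (log2 0.30, SE 0.059). With the composition trends removed, the log2 differences of these 8 genes lay on the same side, from 0.15 in Vps35 to 0.37 in Pdcl.

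The largest folds at an unadjusted p under 0.05 rested on single libraries on the lower side. Ecel1, an endopeptidase of neurons, was at 23.5, 4.38 and 1.7 CPM in Control and 2.72, 2.1, 1.34, 5.09 and 1.64 CPM in S-V (log2 −1.94). Baiap3, of dense-core vesicle traffic, was at 41.2, 9.89 and 4.37 CPM and 5.73, 7.04, 4.21, 12.3 and 4.45 CPM (log2 −1.47). In both, Control replicate 1 stood far above every other library. Ngb, neuroglobin, was at 15.1, 4.15 and 1.85 CPM and 2.52, 2.73, 1.7, 4.65 and 2.48 CPM, and Cdhr4, a cadherin relative, at 10.7, 3.07 and 2.58 CPM and 2.68, 2.1, 2.34, 3.08 and 2.2 CPM. Without Control replicate 1 the log2 differences were −0.25 in Ecel1, −0.09 in Baiap3, −0.10 in Ngb and −0.19 in Cdhr4. Control replicate 1 also had the highest striatum marker score of the 8 libraries, at 0.828 against 0.0843 and −0.308 in the other controls and −0.443 to 0.339 in S-V, and the part of neighbouring tissue in these 4 genes was not tested. The largest folds on the higher side were Pakap (log2 1.33, SE 0.53), a locus whose reads overlap those of the genes it joins, Paqr5, a membrane progestin receptor (0.87, SE 0.37), Mterf1a, a mitochondrial transcription terminator with a near-identical copy (0.74, SE 0.20), and Kcnmb2, a beta subunit of BK channels (0.73, SE 0.32).

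Immediate early genes, the first transcriptional sign of firing, gave no shared direction. Of 30 members tested 18 were positive. At an unadjusted p under 0.05, 1 was higher (3.33%, against 7.55% of all genes) and 2 were lower (6.67%, against 6.12%). The list median was 0.027 where the median of all genes was 0.0023. Without Control replicate 1 the list median was −0.10. With the trends removed it was 0.091, with 1 higher and 0 lower. Fos, the AP-1 subunit, was at 15.1, 17.6 and 16.2 CPM in Control and 15.4, 17.3, 15.2, 23.6 and 17.2 CPM in S-V (log2 0.12, SE 0.22). Arc, the synaptic capsid protein of plasticity, was at 116, 163 and 219.9 CPM and 190.3, 139.5, 205, 145 and 198 CPM (log2 0.079, SE 0.22), and Egr1, a zinc finger factor, at 116, 143 and 160.1 CPM and 134, 130.5, 148, 126 and 153 CPM (log2 −0.014, SE 0.14). The S-V values lay within the range of the controls for Arc and Egr1, and for Fos only S-V replicate 4 was above it. Npas4, a factor selectively induced by depolarisation, went the other way, with 18.8, 12.4 and 13.5 CPM in Control and 7.55, 11.3, 11.1, 12.2 and 9.53 CPM in S-V (log2 −0.53, SE 0.22, adjusted p 0.293). All 5 S-V libraries lay below the controls, and the difference was −0.33 without Control replicate 1, the highest library. Jund, an AP-1 partner that is always present, was at 163, 147 and 141 CPM and 120.5, 114, 128, 128 and 128 CPM (log2 −0.28, SE 0.092), and Dusp5, an ERK phosphatase, had a log2 of 0.36 (SE 0.15), which was 0.19 without Control replicate 1 and 0.60 without Control replicate 3. Of the delayed wave, 1 of 21 members was higher (Rheb, an activator of mTORC1, log2 0.25) and 1 lower (Acan, the perineuronal net proteoglycan, −0.52, and −0.32 without Control replicate 3). Bdnf, the neurotrophin, had a log2 of 0.055 (SE 0.17), and among 8 neurotrophin and Trk genes Ngfr, the p75 receptor of septal cholinergic axons, was at 5.02, 3.02 and 2.33 CPM and 1.61, 2.16, 2.28, 2.89 and 1.13 CPM, a log2 of −0.79 that was −0.42 without Control replicate 1.

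Glucocorticoid-responsive genes stood on the higher side, with 26 of 30 members positive, a median of 0.21, and 6 higher (20%, against 7.55% of all genes) and 0 lower at an unadjusted p under 0.05. With the GC and length trends removed the median was 0.21 and 4 members were higher, against 3.92% of all genes. With single libraries left out the median was 0.13 to 0.24. For 0 of the 30 members did all 5 S-V libraries lie above all 3 controls, which held for 6.62% of all genes. Sgk1, a kinase that the glucocorticoid receptor induces in glia and neurons, was at 63.4, 83.2 and 92.7 CPM in Control and 139.5, 106, 109.8, 108 and 75.7 CPM in S-V (log2 0.44, SE 0.18, adjusted p 0.279). Tsc22d3, which encodes GILZ, was at 47.5, 56.4 and 51.4 CPM and 75.4, 62.9, 59.8, 67.8 and 52.1 CPM (log2 0.30, SE 0.11). S-V replicate 5 stayed within the controls in both genes, while the other 4 libraries were above them. Sesn1, a regulator of growth signalling, was at 51.1, 60.9 and 65.2 CPM and 70.6, 70.6, 72.7, 63.1 and 71 CPM, and Errfi1, an EGF receptor inhibitor, at 34.5, 44.9 and 47.5 CPM and 55.8, 55, 56.2, 45.2 and 51.4 CPM, with Control replicate 1 the lowest library of each and S-V replicate 4 within the controls in both. Without Control replicate 1 the log2 differences were 0.29 in Sgk1, 0.19 in Errfi1 (from 0.32), 0.14 in Sesn1 (from 0.24) and 0.088 in Fkbp5. Fkbp5, the chaperone that dampens the receptor, was at 50.9, 69.7 and 58.1 CPM and 67.6, 71.8, 73.7, 64.3 and 62.7 CPM (log2 0.19, SE 0.11), and the groups overlapped, with a value of 0.31 without Control replicate 2. The receptors differed by less than their spread, with Nr3c1, the glucocorticoid receptor, at 80.0 ± 12 CPM in Control (SD, n = 3) and 84 ± 7.26 CPM in S-V (SD, n = 5), and Nr3c2, the mineralocorticoid receptor, at 195 ± 45.5 and 192 ± 26.5 CPM. At an unadjusted p under 0.05, 0 of the 10 corticosteroid and CRH genes were higher and 0 lower. Of the 19 clock genes 2 were higher at that p (10.5%, against 7.55% of all genes) and 0 lower.

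Chaperones fold new and damaged proteins, and more of them were higher in S-V than the background of all genes. Of 32 genes 27 were positive and 10 were higher at an unadjusted p under 0.05 (31.25%, against 7.55% of all genes), with 0 lower, and for 12 all 5 S-V libraries lay above all 3 controls, which held for 6.62% of all genes. Dnaja1, an HSP40 partner of HSP70, was at 246, 259 and 257 CPM in Control and 319, 319.7, 306, 308 and 329.9 CPM in S-V (log2 0.32, SE 0.079, adjusted p 0.152). Hspd1, the chaperonin of the mitochondrial matrix, was at 148, 149 and 140.0 CPM and 164, 179.6, 163, 176 and 176 CPM (log2 0.23, SE 0.059). St13, an HSP70-interacting cochaperone, was at 141, 141 and 129 CPM and 164, 162, 155, 172 and 161 CPM (log2 0.25, SE 0.073). The groups were apart in all 3 genes. The inducible forms were less even: Hspa1a had a log2 of −0.026 (SE 0.10), its near-identical neighbour Hspa1b 0.30 (SE 0.15) and Bag3, a heat shock factor target, −0.12 (SE 0.15). The list is of moderate to low GC content (median 47.4% against 50.3% for all genes). With the composition trends removed its median went from 0.11 to 0.057. Its members higher at an unadjusted p under 0.05 went from 10 to 5, with 1 lower. Over all genes the share higher at that p went from 7.55% to 3.92%.

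Hspd1 and its cochaperonin gene Hspe1 are transcribed in opposite directions from a shared promoter, which is printed here because it was the single place among the chaperone genes where a full heat shock element was found. The element was searched as 3 alternating units of GAA and TTC with NN between them, beginning with either unit, on both strands, in the 250 bases before each start site of the RefSeq promoter table (GRCm38.p6). It occurred in 50 of 11467 tested genes with a promoter in the table (0.436%) and in 2 of 26 chaperone genes (7.69%), which are these 2 and share the same bases. The stretch is at chr1:55088044-55088086, read on the minus strand toward Hspd1, with the match that begins with GAA in capitals, 126 bases before the start site. A match that begins with TTC overlaps it, 131 bases before the start site.
Hspd1: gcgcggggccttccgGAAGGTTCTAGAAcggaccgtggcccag
Beside the values of Hspd1 above, Hspe1 was at 48.6, 52.3 and 41.1 CPM in Control and 58.1, 49.3, 46.1, 50.8 and 53.3 CPM in S-V (log2 0.12, SE 0.11), and there the groups overlapped. A match is a description of the letters and not a measured site.

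Genes of the endoplasmic reticulum stress response had 5 of 29 members higher (17.2%, against 7.55% of all genes) and 0 lower at an unadjusted p under 0.05, led by Tmx3, Hspa13, a microsomal HSP70 relative (log2 0.29, SE 0.07), and Dnajb9, a cochaperone of BiP (log2 0.27, SE 0.079). With the composition trends removed 2 were higher, against 3.92% of all genes. Among 30 hypoxia and glycolysis genes 4 were higher (13.3%), with Bnip3, a mitophagy receptor (log2 0.20, SE 0.062), and Hif1a, the oxygen-sensing factor (log2 0.20, SE 0.074, and 0.10 without Control replicate 1), and 2 lower (6.67%, against 6.12% of all genes), with Eno2, the neuronal enolase, at 981, 997 and 958 CPM in Control and 874, 850.0, 883, 872 and 901 CPM in S-V. Nfe2l2, the regulator of antioxidant genes, was at 15.7, 20.3 and 14.3 CPM and 19.6, 22.6, 25.4, 24.1 and 19.4 CPM (log2 0.41, SE 0.13), and 2 of 25 genes of that list were higher (8%, near the background). Of 24 interferon and antigen presentation genes 0 were higher and 0 lower. Of 19 inflammatory genes 2 were higher (10.5%) and 1 was lower (5.26%). Tnfaip3, the NF-kB brake A20, was at 5.33, 5.46 and 6.03 CPM and 7.05, 7.67, 10.5, 8.3 and 7.22 CPM without overlap, while Rela, an NF-kB subunit, had a log2 of −0.31 (SE 0.11).

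Glutamate receptor genes were mostly negative in S-V. Of 18 AMPA receptor genes 15 were negative and 3 were lower at an unadjusted p under 0.05 (16.7%, against 6.12% of all genes), with 0 higher and a median of −0.10. The pore subunit Gria1 differed by less than its spread, at 1087 ± 136 CPM in Control (SD, n = 3) and 1088 ± 62.5 CPM in S-V (SD, n = 5). The 3 members with the smallest p were auxiliary proteins. Gsg1l, which slows receptor recovery, was at 32.6, 33.6 and 37.5 CPM and 26.1, 23.7, 28.9, 29 and 28.8 CPM (log2 −0.34, SE 0.12). Shisa7, which also binds GABA-A receptors, was at 209, 229 and 242 CPM and 193, 182, 198, 193 and 198 CPM (log2 −0.23, SE 0.086). Both had the groups apart, and Cacng4, a TARP, had 4 of 5 S-V libraries below the controls (log2 −0.26, SE 0.09, and −0.17 without Control replicate 1).

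All 6 NMDA receptor genes tested were negative, and 3 were lower at an unadjusted p under 0.05 (50% of a short list, against 6.12% of all genes). Grin1, the subunit every NMDA receptor needs, was at 522, 573 and 628 CPM in Control and 494, 460.2, 567, 418 and 553 CPM in S-V (log2 −0.20, SE 0.091, adjusted p 0.331), with 3 of 5 S-V libraries below the controls and a value of −0.14 without Control replicate 3. Grin2c (log2 −0.24, SE 0.11) and Grin2d (log2 −0.27, SE 0.12) were the other members below that p, the latter with Control replicate 1 well above the other controls (20.9, 15.8 and 13 CPM against 13.9, 13.8, 15.3, 13.5 and 12 CPM in S-V), whereas Grin2a (log2 −0.0044, SE 0.13) and Grin2b (log2 −0.091, SE 0.21), the main partners in hippocampus, were not. Among 14 kainate and metabotropic receptor genes 2 were lower (14.3%), Grik5, a high-affinity kainate subunit, at 243, 256 and 273 CPM and 212, 196, 237, 199 and 225 CPM (log2 −0.26, SE 0.08), and Grm4, a presynaptic receptor (log2 −0.34, SE 0.13). Without Control replicate 1 the value was −0.21 in Grm4 and −0.073 in Grin2d, and without Control replicate 3 it was −0.42 in Grin2d. Base composition moved with these values. With its trends removed the median of the NMDA list was −0.09 in place of −0.18, Grin1 was at −0.081, Grik5 at −0.13, and 0 NMDA, 2 AMPA (Cacng4, −0.20, and the pore subunit Gria2, −0.13) and 0 kainate or metabotropic genes were lower at an unadjusted p under 0.05.

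**Figure D3:**
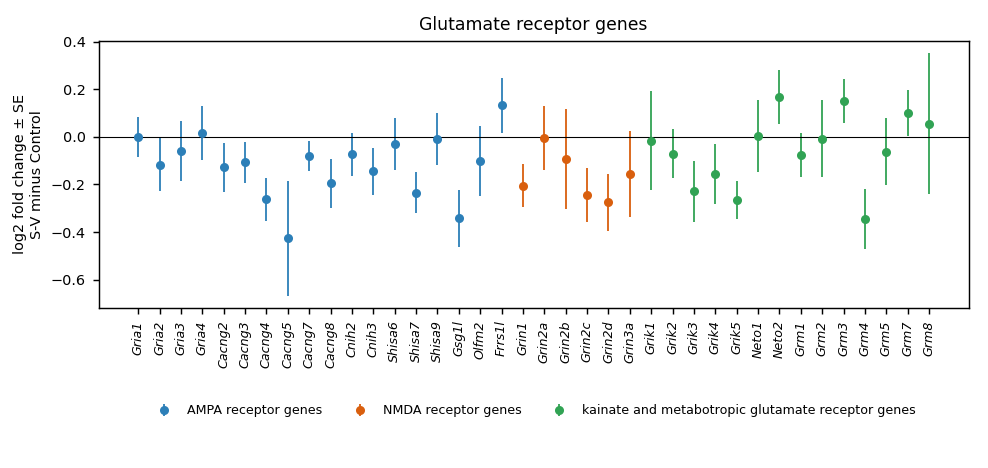
Log2 fold change with its standard error of S-V against Control for each tested AMPA, NMDA, kainate and metabotropic glutamate receptor gene. The pore subunits Gria1 and Grin2a lie at about 0, and Gsg1l, Grik5 and Grm4 lie below it with their error bars clear of it.

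Among 24 genes of inhibitory signalling, Slc12a5, the chloride exporter KCC2, was at 490.2, 476 and 518 CPM in Control and 417, 414, 443, 427 and 453 CPM in S-V (log2 −0.20, SE 0.07), with every S-V library below every control. Slc6a11, a glial GABA transporter, had a log2 of −0.32 (SE 0.12), and −0.18 without Control replicate 1. Slc12a5 transcripts have a GC content of 58.3%, above the median of all genes, and with the trends removed its log2 value was −0.073.

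Acetylcholine, the septal transmitter, had 13 of 18 genes negative, 4 lower (22.2%, against 6.12% of all genes) and 0 higher at an unadjusted p under 0.05, with a median of −0.15. With the trends removed 2 were lower, against 4.47% of all genes, and the median was −0.09. Ache, acetylcholinesterase, was at 64.2, 60.4 and 54.9 CPM in Control and 42.4, 44.3, 54.6, 48.4 and 51.4 CPM in S-V (log2 −0.31, SE 0.12), with all S-V libraries below the controls. Chrna4, the alpha4 nicotinic subunit, had a log2 of −0.32 (SE 0.12), and Chrna3, a habenular subunit, −0.67 (SE 0.31), which was −0.21 without Control replicate 3. The vesicular transporter Slc18a3 was near the limit of detection, at 1.76, 0.226 and 0.875 CPM and 0.0412, 0.114, 0, 0.44 and 0 CPM, so no fold is given. Chrm1, the main muscarinic receptor of pyramidal cells, was at 291 ± 44.2 CPM in Control (SD, n = 3) and 274 ± 29.1 CPM in S-V (SD, n = 5). The cholinergic score was highest in Control replicates 1 and 3 (0.362 and 0.35, against 0.0722 in replicate 2). Habenula markers, which hold some of the same nicotinic genes, had 13 of 15 members negative, and their part in the cholinergic values was not tested.

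Histamine signalling, the target of some drugs against motion sickness, had 0 of 5 genes higher and 0 lower. Hrh1 was at 6.34, 4.38 and 3.31 CPM in Control and 3.55, 4.54, 4.27, 7.17 and 3.33 CPM in S-V, Hrh3, the presynaptic autoreceptor, at 63.3, 39.5 and 41.8 CPM and 33.3, 39, 37.4, 56 and 38.9 CPM, and Hnmt, which breaks histamine down, at 18.5, 20.4 and 17.6 CPM and 24.4, 22, 21, 20.2 and 21.1 CPM. The groups overlapped in each of these genes.

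On the presynaptic side 5 of 44 vesicle and release genes were lower (11.4%, against 6.12% of all genes) and 1 higher at an unadjusted p under 0.05, and 1 was lower with the trends removed. Sv2c, a vesicle glycoprotein (log2 −0.34, SE 0.11), and Ppfia3, a liprin of the active zone (log2 −0.19, SE 0.061), were leading members of the lower side. Postsynaptic scaffolds had 6 lower (15.4%) and 1 higher of 39, and for 9 all S-V libraries lay below all controls, which held for 5.74% of all genes. The list as a whole was centred near 0, with 18 members positive, 21 negative and a median of −0.014. Dlg4, which encodes PSD-95, was at 932, 989.7 and 989.8 CPM and 895, 814, 893, 831 and 879 CPM (log2 −0.17, SE 0.059), and Nlgn2, the adhesion molecule of inhibitory synapses, at 224, 228 and 230.3 CPM and 184, 197, 208, 186 and 208 CPM (log2 −0.21, SE 0.069). The composition trends moved these apart: Dlg4 was at −0.22 without them and Nlgn2 at −0.071, and Dlg4 was the 1 scaffold gene still lower at that p.

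Spine actin genes, a list that includes Dbn1, were on both sides. Of 42 tested 5 were higher (11.9%, against 7.55% of all genes) and 3 lower (7.14%, near the 6.12% of all genes) at an unadjusted p under 0.05. Among the higher ones were Capza2, an actin capping subunit, at 235, 269.7 and 266 CPM in Control and 308, 288, 333, 276 and 334 CPM in S-V (log2 0.26, SE 0.083), and Abi1, of the WAVE complex, at a log2 of 0.25 (SE 0.084). With the composition trends removed 2 spine actin genes were higher and 1 lower, against 3.92% and 4.47% of all genes. In the spectrin, ankyrin and axon list 4 of 28 were lower (14.3%) and 1 higher, Nefl, the light neurofilament (0.16). The lower ones held Map6, a microtubule stabiliser (log2 −0.30, SE 0.081), and Tubb3, the neuronal tubulin (log2 −0.19, SE 0.075), beside Sptbn4, and without Control replicate 1 their values were −0.20 and −0.11. With the trends removed 1 was lower, and the median turned from −0.04 to 0.015. Voltage-gated channels had 34 of 47 genes negative and 3 lower at an unadjusted p under 0.05 (6.38%, near the 6.12% of all genes). Hcn2, a pacemaker channel, was at 159, 160.1 and 162 CPM and 141, 126, 141, 134 and 142 CPM (log2 −0.23, SE 0.067), and Cacna1g, the T-type calcium channel of thalamic relay cells, at 55.6, 45.9 and 42.9 CPM and 35.3, 39.4, 36.8, 41.4 and 35.9 CPM (log2 −0.35, SE 0.10). The channel median went from −0.10 to −0.014 with the composition trends removed.

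**Figure D4:**
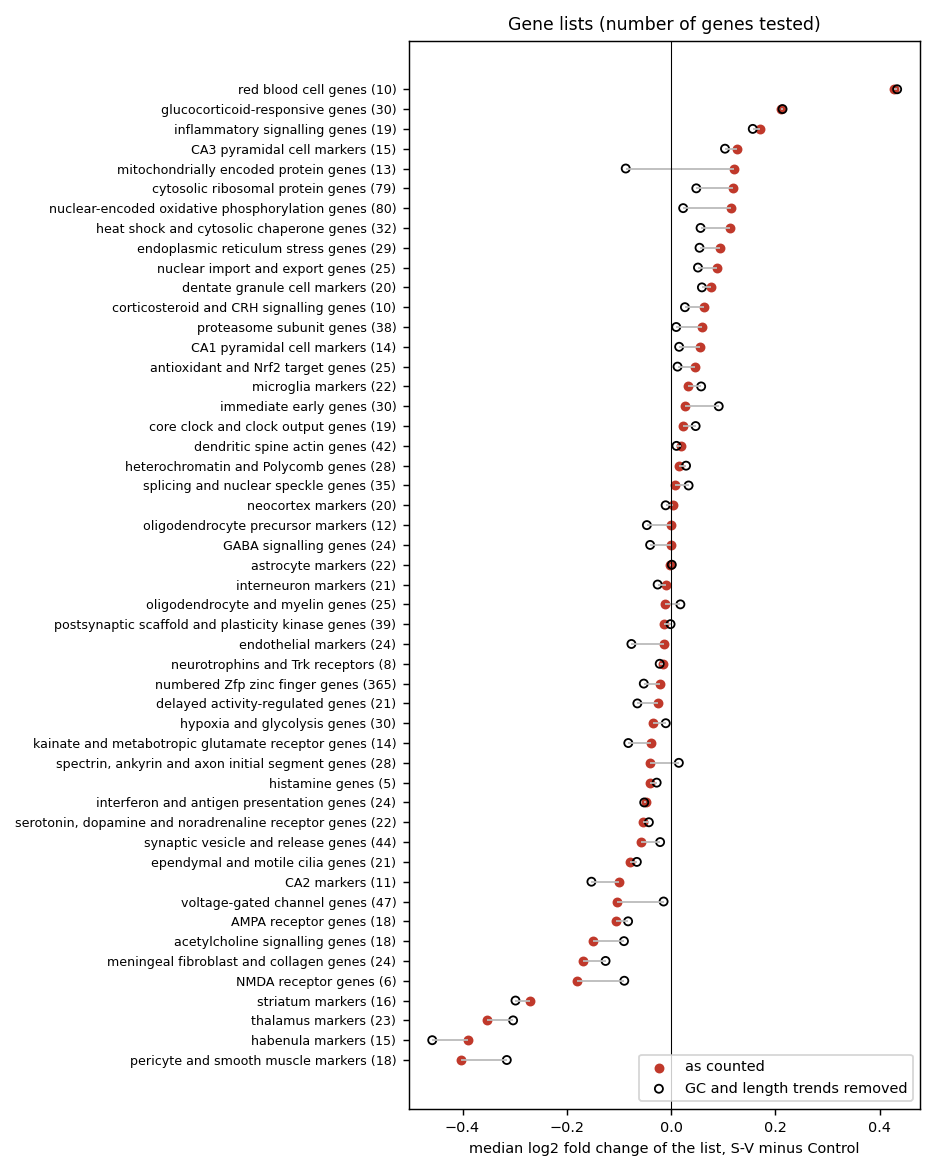
Median log2 fold change of S-V against Control over the tested genes of each list, as counted (filled) and after removing the GC and length trends of every library (open), with choroid plexus and sex-linked lists left off for scale. Glucocorticoid-responsive genes keep a median near 0.21 in both, while mitochondrially encoded genes go from 0.12 to −0.087.

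Most energy and translation genes were positive by small amounts. Of 80 nuclear-encoded oxidative phosphorylation genes 67 were positive, with a median of 0.12, but 6 were higher at an unadjusted p under 0.05 (7.5%, near the 7.55% of all genes). Cox7c, a small subunit of cytochrome oxidase, was at 89.6, 100.3 and 79.9 CPM in Control and 133, 125, 109, 101 and 118 CPM in S-V (log2 0.39, SE 0.10). Of 79 cytosolic ribosomal protein genes 75 were positive with a median of 0.12, and 5 were higher (6.33%). Rpl39 was at 22.7, 21.8 and 18.4 CPM and 33.7, 30.4, 24.9, 23 and 29.5 CPM. Mitochondrially encoded genes had a median of 0.12, led by mt-Nd3, a complex I subunit, at 501, 719.8 and 509 CPM and 1043, 972, 782, 773 and 937 CPM (log2 0.64, SE 0.15). Control replicate 3 and base composition moved with these values. Without that control the medians were 0.042 for nuclear oxidative phosphorylation, 0.05 for ribosomal and 0.053 for mitochondrial genes, and with the trends removed 0.023, 0.048 and −0.087. With the trends removed 7 ribosomal genes were higher and 0 lower at an unadjusted p under 0.05. For nuclear oxidative phosphorylation 4 were higher and 1 lower, and for mitochondrial genes 1 was higher and 3 lower. Over all genes these shares were 3.92% higher and 4.47% lower.

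Nuclear transport factors had 9 of 25 members higher at an unadjusted p under 0.05 (36%, against 7.55% of all genes), with 1 lower. Kpna4, an importin alpha, was at 73.6, 73.3 and 87.6 CPM in Control and 107, 107, 95.5, 95.7 and 98.8 CPM in S-V (log2 0.37, SE 0.094), and Ipo7, an import receptor for ribosomal proteins and histones, had a log2 of 0.25 (SE 0.071). Ipo13 was the lower member (log2 −0.18, SE 0.064). With the composition trends removed 5 were higher, against 3.92% of all genes, and 0 lower. Of 38 proteasome subunit genes 3 were higher (7.89%). Of 28 heterochromatin and Polycomb genes 4 were higher (14.3%) and 3 lower (10.7%, against 6.12% of all genes). That list held 15 positive and 13 negative members, with a median of 0.015. Its higher members included Rnf2 and Bmi1, of Polycomb complex 1, beside Cbx1 (log2 0.32 and 0.29, and 0.15 and 0.17 without Control replicate 1). With the trends removed 2 of that list were higher and 1 lower. Splicing and speckle genes split evenly, 6 higher and 6 lower of 35, each above the background of all genes. Srsf7, an SR splicing factor, was at 63.3, 69.9 and 68 CPM and 81.7, 80.7, 81.1, 78 and 77.1 CPM, whereas Pnisr, a speckle protein, was at 59.5, 72.9 and 84.2 CPM and 52.7, 53.8, 53.7, 62.5 and 50.9 CPM. With the trends removed the split was 1 higher (Acin1, 0.27) and 6 lower, with Pnisr at −0.50. The 365 numbered zinc finger genes had 23 higher and 29 lower (6.3% and 7.95%, against 7.55% and 6.12% of all genes). With the trends removed 13 were higher and 49 lower, where 3.92% of all genes were higher and 4.47% lower.

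Few markers of the hippocampal fields reached an unadjusted p under 0.05. Granule cell markers had 0 of 20 higher and 0 lower. CA1 markers had 0 higher and 1 lower of 14 (7.14%, against 6.12% of all genes), which was Fibcd1 (log2 −0.19, SE 0.089). The granule cell median was 0.076, and −0.12 without Control replicate 1, the library with the least Prox1, against 0.24 without Control replicate 3, the one with the most. CA2 markers had 2 of 11 lower (18.2%, against 6.12% of all genes). Among them Ptpn5, the striatum-enriched phosphatase STEP, was at 171, 124 and 123 CPM in Control and 100.5, 103, 102, 116 and 109.6 CPM in S-V (log2 −0.39, SE 0.095). Control replicate 1 was the highest library there, and without it the value was −0.22. CA3 markers had 2 of 15 higher (13.3%, against 7.55% of all genes) and 1 lower (6.67%, against 6.12%). Elavl2, a neuronal RNA-binding protein, was at 44.5, 49.5 and 49 CPM and 59.5, 67.7, 59.9, 64.1 and 64.6 CPM (log2 0.41, SE 0.10), with no overlap. Interneuron markers had 0 higher and 0 lower of 21, and Vip, the neuropeptide, was at 11.6, 10.3 and 11 CPM and 13.3, 11.6, 14.2, 16.4 and 15.3 CPM.

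Among glia, some microglial genes were higher in S-V. Of 22 markers 5 were higher and 0 lower at an unadjusted p under 0.05, beside 7.55% and 6.12% of all genes. The list held 14 positive and 8 negative members, with a median of 0.032. All 5 S-V libraries lay above all 3 controls for 3 members and below for 1, beside 6.62% and 5.74% of all genes. The list score, its mean log2 CPM minus the mean over the 18 libraries, was −0.037, 0.0023 and −0.072 in Control. In S-V it was 0.13, −0.098, 0.12, 0.12 and 0.052, so replicate 2 lay below the controls. Gpr34, a lysophosphatidylserine receptor, was at 11.1, 11.8 and 10.8 CPM in Control and 16.8, 13.5, 18.5, 13.9 and 17 CPM in S-V (log2 0.51, SE 0.11, adjusted p 0.135). P2ry12, the ADP receptor of resting microglia, was at 28.9, 37 and 34.4 CPM and 41.4, 41.7, 45.7, 37.2 and 49.9 CPM (log2 0.37, SE 0.10), and Ly86, the MD-1 protein, at 7.44, 7.81 and 6.27 CPM and 10.6, 8.97, 10.5, 12 and 11.9 CPM (log2 0.59, SE 0.18). The groups were apart in all 3, with S-V replicate 4 just above the controls in P2ry12. Ctss, a lysosomal protease, had a log2 of 0.24 (SE 0.081). The complement genes C1qb (−0.028) and C1qc (0.04) and the marker Tmem119 (−0.004) were close to 0. With the trends removed 3 were higher, against 3.92% of all genes. In bulk tissue, more cells of a type and more RNA per cell cannot be told apart. Astrocytes had 2 of 22 markers higher (9.09%, against 7.55% of all genes) and 0 lower. The higher ones were Gjb6, a connexin (log2 0.28, SE 0.12), and Aqp4, the water channel (log2 0.20, SE 0.10). The astrocyte list held 11 positive and 11 negative members, with a median of −0.0012. With the trends removed 0 astrocyte markers were higher and 0 lower at that p. Oligodendrocytes had 1 of 25 higher (4%), which was Ermn (log2 0.30, SE 0.14). Their precursors had 1 of 12 lower (8.33%, against 6.12% of all genes), which was Cspg4.

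Markers of vessel walls and of tissue beside the hippocampus had wide list medians that moved with single libraries. Pericyte and smooth muscle markers had 17 of 18 negative, a median of −0.40 and 3 lower at an unadjusted p under 0.05 (16.7%, against 6.12% of all genes: Pdgfrb, Cspg4 and Notch3, a receptor of mural cells, log2 −0.39, SE 0.16). Their score, the mean log2 CPM of a list minus its mean over the 18 libraries, was 0.09, 0.66 and 0.071 in Control and −0.045, −0.20, −0.057, 0.089 and 0.17 in S-V. Control replicate 2 stood apart, and without it the median was −0.13. Rgs5, another pericyte gene, went the other way, at 80.9, 90.6 and 86.6 CPM in Control and 97.5, 98.7, 99.4, 91.7 and 103 CPM in S-V (log2 0.19, SE 0.095). Of 24 endothelial markers 2 were higher (8.33%, against 7.55% of all genes) and 3 lower (12.5%, against 6.12%). The list was split, with 11 members positive, 13 negative and a median of −0.014. Among the lower ones were Kdr, the VEGF receptor, at 21.3, 19.7 and 19.7 CPM and 15.1, 17.8, 15.7, 15.2 and 14.2 CPM, and Tie1, an orphan receptor, at 14.1, 14.7 and 14.4 CPM and 10.8, 11.5, 12.1, 10.8 and 11.6 CPM, both without overlap. Abcg2 was among the higher ones (log2 0.30). Meningeal and collagen genes had a median of −0.17, which was 0.17 without Control replicate 2.

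Choroid plexus markers, of the epithelium that makes cerebrospinal fluid, were all 20 positive with a median of 1.40, though 0 reached an unadjusted p under 0.05. Ttr, transthyretin, was at 317, 989.8 and 49.3 CPM in Control and 339.7, 3791, 662, 3525 and 88.3 CPM in S-V. S-V replicates 2 and 4 held the high values and the other 3 lay among the controls. The median was 1.32 with the trends removed and −0.041 without the 5 libraries of the series rich in these markers. Red blood cell genes had 9 of 10 positive, with Hbb-bs at 206, 261 and 203 CPM and 291, 371, 258, 337 and 446 CPM, and reads may be split among globin copies.

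Thalamus markers had 21 of 23 negative, a median of −0.35 and 4 lower at an unadjusted p under 0.05 (17.4%, against 6.12% of all genes), with 0 higher. The median was −0.16 without Control replicate 2. Their score was 0.55, 0.54 and 0.12 in Control and −0.066, 0.25, 0.13, 0.11 and −0.20 in S-V, so the groups overlapped through Control replicate 3. Tcf7l2, a factor of thalamic relay neurons, was at 8.54, 12.6 and 6.71 CPM and 5.53, 6.64, 9.94, 6.04 and 6.15 CPM (log2 −0.44, SE 0.27, and −0.16 without Control replicate 2). Habenula markers had a median of −0.39, and −0.21 without Control replicate 3, with Hcn4, a pacemaker channel, at 4.4, 2.98 and 3.06 CPM and 2.31, 2.33, 1.34, 2.26 and 1.97 CPM (log2 −0.76, SE 0.23). Striatum markers had a median of −0.27, and −0.056 without Control replicate 1. The medians of the glucocorticoid, chaperone and NMDA receptor lists were 0.15, 0.12 and −0.17 without the choroid-rich libraries, and 0.25, 0.13 and −0.24 with the thalamus score as a covariate.

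**Figure D5:**
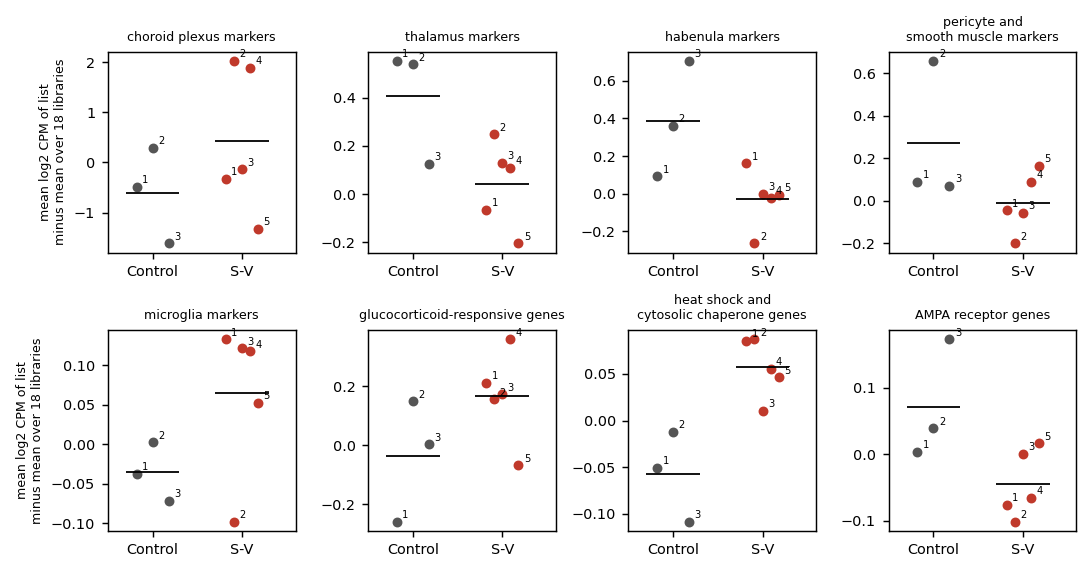
Scores of 8 lists (mean log2 CPM of the members minus its mean over the 18 libraries) in the 3 Control and 5 S-V libraries, with the replicate number beside each point and a line at the group mean. S-V replicates 2 and 4 hold the choroid plexus signal, Control replicate 2 is apart in pericyte markers, and the chaperone scores of all 5 S-V libraries lie above the controls.

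Set against the other rotated groups, S-V gave 0 genes (0%) at an adjusted p under 0.05 in edgeR, with a smallest adjusted p of 0.59 against D-V and 0.174 against D+V. There were 950 genes (6.44%) against D-V, 445 higher (3.01%) and 505 lower (3.42%), and 1917 (13%) against D+V, 707 higher (4.79%) and 1210 lower (8.2%), all at an unadjusted p under 0.05. DESeq2 called 4 and 149 genes in these comparisons and limma voom 0 and 1942, and edgeR called 1450 against D+V when D+V replicate 1 was left out. By their labels S-V and D-V differ in the directions of rotation, with vision blocked in both. Of genes with a regular symbol, the 3 higher in S-V with the smallest p were Plekhf1, an endosomal protein of the glucocorticoid list (log2 0.78, SE 0.19, adjusted p 0.59), Mat2a, the enzyme that makes S-adenosylmethionine (0.22, SE 0.045), and Cd38, an NAD hydrolase (0.42, SE 0.10). The 3 lower were Cspg4 (−0.48, SE 0.10), Sptbn4 (−0.25, SE 0.054) and Col4a2 (−0.35, SE 0.078). Sgk1 had a log2 of 0.56 (SE 0.15) and Tsc22d3 of 0.36 (SE 0.10), and the glucocorticoid median was 0.25 in S-V against D-V and 0.20 in S-V against D+V. Tcf7l2 was at 0.71 (SE 0.24) in S-V against D-V.

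In S-V against D+V, whose labels differ in both direction and vision, the 3 named genes higher in S-V with the smallest p were Klf2, an early-response factor of endothelium (0.73, SE 0.17, adjusted p 0.174), Plekhf1 (0.85, SE 0.19) and Bcl7b, of the SWI/SNF complex (0.33, SE 0.071). The 3 lower were Ttc14 (−0.66, SE 0.13), Prkdc, the DNA-dependent protein kinase (−0.54, SE 0.11), and Bicd1, a dynein adaptor (−0.60, SE 0.12). The immediate early gene median was 0.23 in S-V against D+V and 0.11 against D-V. With all libraries kept, edgeR gave no gene at the adjusted threshold between S-V and either group rotated in both directions.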

How the data were processed

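RNA of mouse hippocampus was enriched with oligo(dT) beads and sequenced as Illumina libraries, per the labels' protocols. The authors deposited estimated counts per gene for 18 libraries, and 6.8 to 8% of the values are not whole. The submitters' processing notes name Bowtie2 2.2.8, HISAT2, StringTie 1.3.1 and DESeq2. Genome build, annotation and the use of strand in counting: not given in the sources used here. Reads of overlapping or antisense genes therefore cannot be told apart. The labels do not say that libraries come from separate animals, and p-values then measure the spread between these samples, which may be technical. None of the 13 pairs of libraries within Control and within S-V agreed within sampling noise; other pairs were not compared.

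Counts were rounded to whole numbers. Genes without a symbol (90, holding 0.0562% of counts) stayed in the fit. edgeR 4.0.16 (R 4.3.3) with filterByExpr, TMM scaling and a quasi-likelihood test of 18 libraries in 4 groups gave log2 fold changes, with Benjamini-Hochberg adjustment over 14763 genes, which held 99.974% of counts. The biological coefficient of variation was 15.36%. DESeq2 1.42.0 and limma 3.58.1 (voom with sample quality weights) were alternatives. GC content and length came from the longest protein-coding GENCODE M21 transcript, or the longest of any type, matched by Ensembl gene identifier. Lowess trends per library were removed as offsets. CPM values are TMM-scaled. The script was tested on simulated data.

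The named genes were, among regular symbols whose mean log2 CPM reached 1, the 10 in each direction with the smallest p, the 4 with the largest fold in each, 3 per list, 3 in each direction against D-V and D+V, and a fixed set of activity, stress and receptor genes. Others were chosen after their values were seen. The members and the 52 gene lists were chosen with earlier results of these data known. Lists are described by counts and medians, with no set test. Replicate numbers were not used as pairs in the main fit. Correlations of deviations between same-numbered Control and S-V libraries were 0.00252, 0.0846 and 0.238. Those of differently numbered libraries were −0.32 to 0.22, and these values do not settle whether the numbers pair the libraries. Some results are not reported here.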

Additional observations from a re-analysis of the deposited data

Results flagged for a closer look

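A library was singled out where its gap to the nearest of the 5 S-V libraries, divided by the range of the 5, was above 0.71 (Dixon's limit). Of 254 values examined 18 met this, where chance gives about 1 in 20. The Control group, with 3 libraries, was not examined. S-V replicate 4 was the one apart in 11 of the 18.

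Among genes named above, Pdgfrb was low in S-V replicate 1 (19.6 CPM), Crocc high in S-V replicate 4 (34.2 CPM), Sesn1 low there (63.1 CPM) and Pnisr high there (62.5 CPM). Chrna3 was at 0.908 CPM in S-V replicate 2. Of proteasome genes, Psmd5 (62.1 CPM) and Psma3 (92.8 CPM) were apart in S-V replicate 4.

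Calb1, a calcium buffer of granule cells, was at 203 CPM in S-V replicate 5, Cacng5, a TARP, at 19.5 CPM in S-V replicate 3, and Chodl, an interneuron marker, at 0.566 CPM in S-V replicate 4. Col4a1, a vessel collagen, was at 30.4 CPM and Irx1, a thalamic factor, at 0.0564 CPM in S-V replicate 5. In S-V replicate 4 the list scores were 0.139 for antioxidant genes, 0.165 for acetylcholine genes, 0.128 for serotonin, dopamine and noradrenaline receptors, −0.247 for CA3 markers and 0.164 for neocortex markers. The library total of S-V replicate 1 was 24.28 M, above the other 4.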

How the results depend on the processing

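In S-V against Control the count of genes at an adjusted p under 0.05 was 0 in edgeR and was 216 with DESeq2, 318 with limma voom, 4 with GC and length trends removed, 3 with upper quartile scaling, 1 without the libraries rich in choroid plexus markers, and 0 to 1 with single libraries left out, the 1 being Zcchc7 without Control replicate 1. In S-V against D-V it was 4 with DESeq2. In S-V against D+V it was 149 with DESeq2, 1942 with limma voom, and 0 to 1450 with single libraries left out, the highest without D+V replicate 1. The cause of these differences was not tested. The other alternatives left these counts at 0, which does not show that values did not differ. With the replicate block the count in S-V against Control was 0, while 1818 genes in place of 2017 reached an unadjusted p under 0.05, and 0 with the block and the GC and length trends removed together. Library totals of 15.56 to 24.28 M and 3 controls limit what could be called, and low genes such as Slc18a3 are set by few counts.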
